A study of Mus musculus with 18 samples.

Results

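The integrated stress response was examined through 10 genes in mouse liver and liver tumours: Atf4, Atf5, Ddit3, Atf3, Nupr1, Trib3, Chac1, Asns, Sesn2 and Ppp1r15a. They were taken by gene name from a table of TPM values (a length-corrected share of all transcripts) that holds 58126 entries. The 10 names matched 11 entries, because Ddit3 is listed under a pair of identifiers. Of these, 10 entries of 9 genes reached 1 TPM in at least 3 of the 18 libraries and were tested. Asns did not, and its values are described without that filter. RNA was sequenced from 5 groups of C57BL/6 mice. DEN LKO tumour (n = 3) and DEN LKO nontumour (n = 3) are tumours and tumour-free liver tissue of mice with a liver-specific knockout of Ftcd (LKO), a folate and histidine enzyme, that had received the carcinogen diethylnitrosamine (DEN). DEN WT nontumour (n = 6) is tumour-free liver of wild-type (WT) littermates given the same agent. DEN was injected intraperitoneally at 20 mg/kg into pups 14 days old, whose livers and tumours were collected 12 months after that injection. Untreated LKO (n = 3) and untreated WT (n = 3) received no carcinogen and were sampled at 12 months of age. No tumour of a WT mouse was analysed here, so every comparison of the tumours with a WT group changes genotype and tissue together. The comparison of the tumours with untreated LKO changes DEN treatment and tissue together. Sex also differs in part in these comparisons, as given below. The labels name neither the Cre driver of the knockout nor whether the libraries of a group came from separate mice or tumours, so the p-values measure the spread between these libraries. Visible tumours were larger than 0.5 mm.

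In the integrated stress response, amino acid shortage, misfolded protein in the endoplasmic reticulum, haem shortage or viral RNA activates kinases that phosphorylate the translation factor eIF2. General translation then falls while the messenger RNA of Atf4 is translated more, so ATF4 protein can change with little change in its mRNA. ATF4 binds DNA with C/EBP and other bZIP partners and switches on genes for amino acid supply, further transcription factors and feedback inhibitors, and a prolonged response can end in cell death. In liver the same pathway is engaged by fasting, mitochondrial faults and tumour growth.

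The promoters of these genes are shown because ATF4 acts through a short C/EBP-ATF response element, searched here as TGATGNAA on either strand (TTNCATCA when read on the other strand). RefSeq promoters (GRCm38.p6, 250 bases before to 50 bases after each start) were found for 10 of the 10 genes, in 11 windows. The element was present in 5 of the 10 genes, against 4.51% of the 27025 genes with a window and 3.97% of the 32851 windows. In the 4 stretches below, written 5′ to 3′ on the strand of the gene, the capitals mark the match. They lie at chr7:126625538-126625615 (minus strand, Nupr1), chr1:191183401-191183478 (minus strand, Atf3), chr2:119351014-119351091 (plus strand, Chac1) and chr6:7693210-7693267 (minus strand, Asns).
Nupr1: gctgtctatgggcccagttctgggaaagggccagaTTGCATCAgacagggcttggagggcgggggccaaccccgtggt
Atf3: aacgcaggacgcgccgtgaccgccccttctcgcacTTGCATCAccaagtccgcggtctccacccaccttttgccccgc
Chac1: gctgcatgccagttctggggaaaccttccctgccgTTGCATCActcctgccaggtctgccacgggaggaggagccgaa
Asns: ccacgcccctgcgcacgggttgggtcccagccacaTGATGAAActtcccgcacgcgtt
Nupr1 and Atf3 carried the identical 8 letters at the identical distance, bases -110 to -103 from the start. The match of Chac1 had the same letters at -193 to -186, and that of Asns lay on the other strand at -23 to -16. The match of Trib3 lay past the start, at +15 to +22. The windows of Atf4, Atf5, Ddit3, Sesn2 and Ppp1r15a did not hold these letters. A match is a description of the sequence, and binding was not measured. All distances are counted from the RefSeq start of the window. The windows of Nupr1 and Atf3 lie within the gene spans given below, which begin further upstream.

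The libraries also differed in traits that the group labels do not name, and some of these went with genotype. TPM of the 37 mitochondrially encoded genes made up between 4.24% and 38.8% of a library. Their mean share was 19.4% in DEN LKO tumour, 24.6% in DEN LKO nontumour and 23.2% in untreated LKO. It was 12.0% in DEN WT nontumour and 12.5% in untreated WT, and single libraries overlapped. No read counts were used, so the depth is unknown. Ftcd ranged from 0.1 to 3.16 TPM in the 9 LKO libraries, but 3 libraries labelled WT (DEN WT nontumour 1 and 2 and untreated WT 3) held only 1.77 to 2.5 TPM, against 61.2 to 106 TPM in the other 6. Xist and Y-linked transcripts marked all 9 WT libraries as XX, whereas 7 of the 9 LKO libraries were XY. Among the DEN LKO libraries, replicate 1 of each tissue was XX, so sex and genotype can be told apart only through these 2 libraries. Both also had the largest mitochondrial shares of the DEN LKO libraries (31.4% and 36.9%, against 10.5% to 19.2% in the XY ones). In fits with a term for XX or XY, sex and that share therefore cannot be told apart. Hepatocyte markers were present in every library (summed TPM of 18640 to 94440). In tumours against DEN WT nontumour 0 of the 8 passed by limma, 3 were lower at an unadjusted p under 0.05, and their median was -0.87 beside 0.04 over all genes.

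Because TPM is corrected for length, the genes can be ranked by level. Over all 18 libraries the median level was 105 TPM for Atf5, 42.7 TPM for Atf4, 15.1 TPM for Ppp1r15a, 7.30 TPM for Ddit3, 3.19 TPM for Trib3, 2.81 TPM for Nupr1, 2.57 TPM for Sesn2, 2.15 TPM for Atf3, 1.52 TPM for Chac1 and 0.14 TPM for Asns. Nupr1 ran from 0.66 to 117 TPM, Atf5 from 42.6 to 244 TPM and Atf4 from 18.6 to 80.6 TPM. As a ratio of highest to lowest library, Nupr1 varied most among the 9 genes with no value of 0. This rank rested on DEN LKO tumour 3, without which Nupr1 ran from 0.66 to 14.6 TPM. The ratio was then larger for Chac1 (0.16 to 7.29 TPM) and Atf3 (0.47 to 12.3 TPM).

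**Figure D1:**
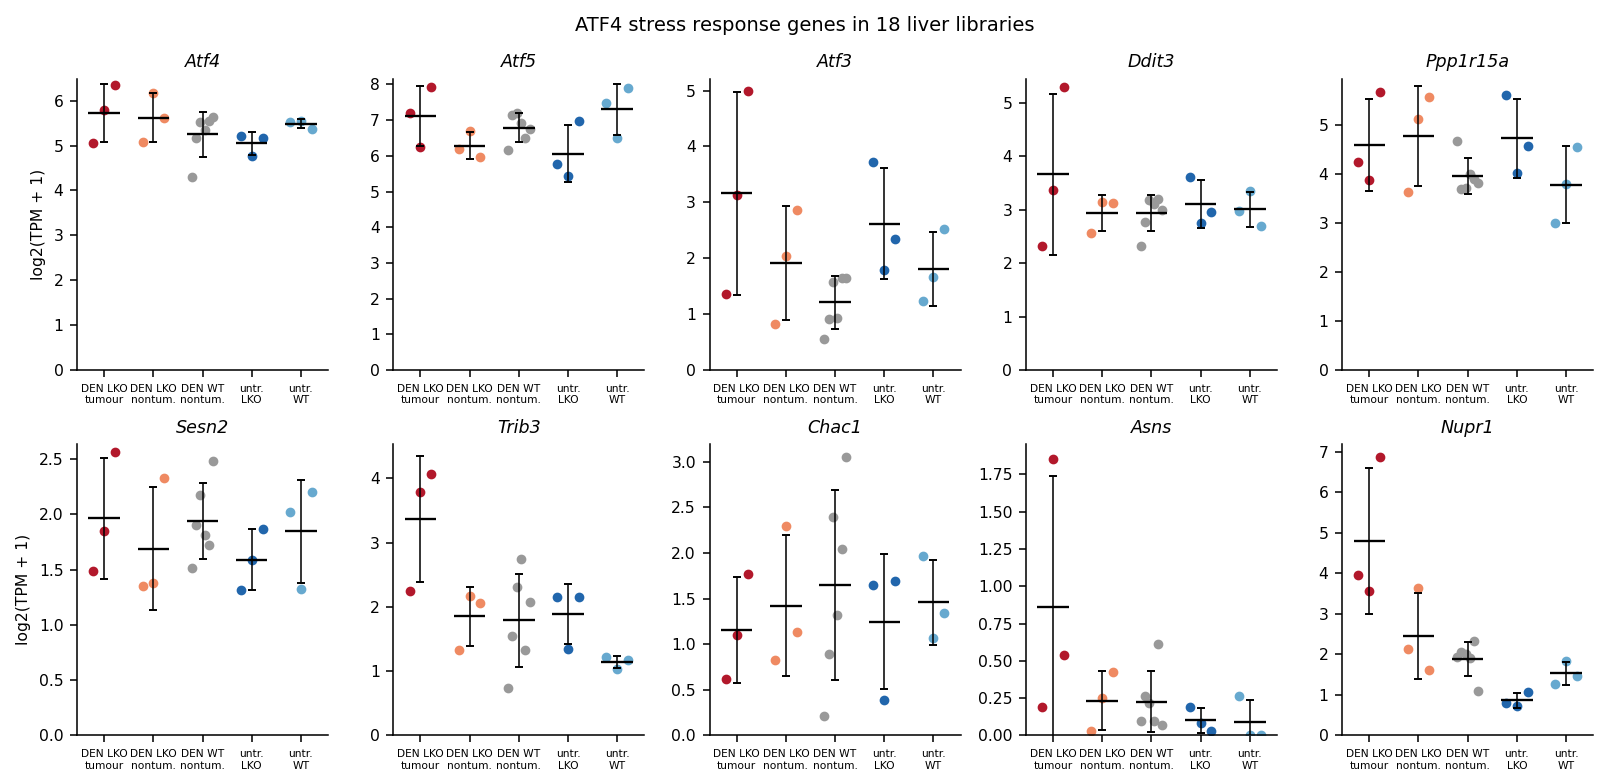
Level of each of the 10 genes in log2(TPM + 1), one point per library, by group (DEN LKO tumour leftmost). Nupr1 in all 3 tumours lies above every library of DEN WT nontumour, untreated LKO and untreated WT, while the groups of Atf4, Sesn2 and Chac1 largely share one range.

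Nupr1 (chr7:126623249-126630861, minus strand, mm10), a small stress-induced chromatin protein that is an ATF4 target, was the 1 gene of the 9 tested that differed past the threshold in any comparison. Its level in the DEN LKO tumours was 14.6, 10.9 and 117 TPM. It was 3.36, 11.6 and 2.06 TPM in DEN LKO nontumour livers, and ran from 1.14 through a median of 2.92 to 4.01 TPM in DEN WT nontumour livers. All 3 tumours exceeded every DEN WT liver, and tumour 3 stood far above the rest, whereas DEN LKO nontumour 2 lay within the range of the tumours. The untreated LKO livers had 0.74, 0.66 and 1.11 TPM and the untreated WT livers 1.43, 2.59 and 1.78 TPM, so every untreated LKO liver lay below every untreated WT liver. The same held for 8.97% of all genes.

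The mean level of Nupr1 was 47.4 ± 60.05 TPM in DEN LKO tumours, 5.66 ± 5.15 TPM in DEN LKO nontumour (SD, n = 3 each), 2.83 ± 0.94 TPM in DEN WT nontumour (n = 6), 0.84 ± 0.24 TPM in untreated LKO and 1.93 ± 0.60 TPM in untreated WT (n = 3 each). Ordered by level, the tumours came highest, then DEN LKO nontumour, DEN WT nontumour, untreated WT and untreated LKO, and no neighbours in this order differed past the threshold. Fold changes are differences of log2(TPM + 1), so those of weakly expressed genes come out too small, and are given with limma's standard error and Benjamini-Hochberg adjusted p over 13872 genes. Nupr1 was higher in DEN LKO tumours than in DEN WT nontumour by 2.91 ± 0.57 (95% interval 1.71 to 4.11, limma adjusted p = 0.0261), a 7.53-fold difference in TPM + 1. Against untreated LKO the difference was 3.93 ± 0.66 (2.55 to 5.32, limma adjusted p = 0.0106). The limma F test over the 5 groups also passed for Nupr1 (adjusted p = 0.027), and for none of the other 8 tested genes, with 0.807% of all genes past the threshold. The exact 2-sided permutation p was 0.0238 for DEN LKO tumours (n = 3) against DEN WT nontumour (n = 6) and 0.1 against untreated LKO (n = 3), each the smallest that these group sizes allow. Both are unadjusted and restate that the groups did not overlap. Every gene without overlap gets the same p, which was so for 3.19% and 10.4% of all genes. In a bulk sample, fewer cells that express a gene and less of its RNA per cell cannot be told apart.

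Between the tumours and the nontumour tissue of the same genotype, Nupr1 differed by 2.34 ± 0.66 (0.95 to 3.73), which did not pass over all genes (limma adjusted p = 0.943). Tumour 3 carried much of the size: without it the difference was 1.30 against DEN LKO nontumour, 1.88 against DEN WT nontumour (limma adjusted p = 0.0954) and 2.90 against untreated LKO, which still passed (limma adjusted p = 0.0297). With a term for XX or XY the difference between tumours and DEN WT nontumour was 2.32 (limma adjusted p = 0.535), a fit in which few libraries separate sex from group. Tumour 1, which is XX as all the DEN WT livers are, had 14.6 TPM, against at most 4.01 TPM in those 6. This is a single library, and the part of sex was not tested. Without the low-Ftcd libraries labelled WT the difference was 2.97 (limma adjusted p = 0.0276). The call against DEN WT nontumour was also lost, at much the same size, without DEN WT nontumour 3 (2.93, limma adjusted p = 0.0552), without DEN WT nontumour 6 (2.75, limma adjusted p = 0.0639) and with no filter on low values (limma adjusted p = 0.0675). The call against untreated LKO was lost without untreated LKO 1 (3.90, limma adjusted p = 0.0602) or untreated LKO 2 (3.87, limma adjusted p = 0.0669), and both were lost when only the compared groups were fitted (limma adjusted p = 0.186 and 0.363).

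Trib3 (chr2:152337422-152344032, minus strand), a pseudokinase induced by ATF4 and CHOP that inhibits AKT and feeds back on ATF4, had 3.75, 12.8 and 15.8 TPM in DEN LKO tumours. It had 1.51, 3.51 and 3.17 TPM in DEN LKO nontumour, and the DEN WT nontumour livers ran from 0.67 through a median of 2.57 to 5.68 TPM. The 3 tumours were above all DEN LKO nontumour libraries, but tumour 1 lay within the range of DEN WT nontumour. In the untreated groups Trib3 was 3.45, 1.54 and 3.47 TPM in LKO and 1.32, 1.05 and 1.26 TPM in WT. Those groups did not overlap either, as was so for 11.4% of all genes, counting both directions. On the log2 scale the tumours differed by 1.51 ± 0.51 from DEN LKO nontumour (limma adjusted p = 0.943) and by 1.58 ± 0.45 from DEN WT nontumour (limma adjusted p = 0.135), and untreated LKO differed from untreated WT by 0.74 ± 0.51 (limma adjusted p = 0.831). None passed. The difference from DEN WT nontumour passed under 4 of the 18 other settings, among them scaling by the median ratio (1.57, limma adjusted p = 0.0173) and leaving out tumour 1 (2.14, limma adjusted p = 0.0123), while with a term for XX or XY it was 0.75 (limma adjusted p = 0.535). Against untreated LKO the tumours differed by 1.48 ± 0.51 (limma adjusted p = 0.236), which passed with a term for XX or XY (1.89, limma adjusted p = 0.0206) and without tumour 1 (2.04, limma adjusted p = 0.0223).

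Among the transcription factors, Atf4 itself (chr15:80255184-80257541, plus strand), the mediator of the response, had 32.4, 54.5 and 80.6 TPM in DEN LKO tumours. It had 32.6, 71.4 and 48.2 TPM in DEN LKO nontumour, and 18.6, 42.3 and 48.9 TPM as lowest, median and highest of DEN WT nontumour. These 3 groups overlapped. The untreated LKO livers had 35.8, 26.1 and 35.2 TPM, below the 45.3, 46.0 and 40.5 TPM of the untreated WT livers. Atf4 differed by 0.48 ± 0.38 between tumours and DEN WT nontumour (95% interval -0.32 to 1.28, limma adjusted p = 0.743) and by -0.44 ± 0.44 between untreated LKO and untreated WT (limma adjusted p = 0.831). For the untreated groups the median over all genes was -0.33, and 8.97% of all genes were lower in LKO without overlap. Under 15 other settings that Atf4 difference ran from -1.36 to 0.06, with 3 of opposite sign.

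Atf5 (chr7:44812256-44816658, minus strand), a related factor whose translation is also favoured when eIF2 is phosphorylated and which acts in the mitochondrial stress response, was the most abundant of the 10. Its level was 145, 75.4 and 244 TPM in DEN LKO tumours, 71.8, 103 and 61.2 TPM in DEN LKO nontumour and 70.1 to 148 TPM in DEN WT nontumour (median 114). The untreated LKO livers had 53.4, 42.6 and 125 TPM and the untreated WT livers 178, 90.3 and 240 TPM. The untreated groups overlapped through 1 LKO library. Their difference of -1.24 ± 0.52 (-2.34 to -0.13) had an unadjusted p of 0.030 and a limma adjusted p of 0.831.

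Ddit3 (chr10:127290774-127296288, plus strand) encodes CHOP, the factor of the late, death-promoting arm. Its main entry had 4.02, 9.30 and 38.2 TPM in DEN LKO tumours, 4.89, 7.85 and 7.71 TPM in DEN LKO nontumour and 4.02 to 8.16 TPM in DEN WT nontumour (median 7.30). The untreated LKO livers had 11.2, 5.73 and 6.80 TPM and the untreated WT livers 6.87, 9.20 and 5.51 TPM. Tumour 3 was the highest library, and tumour 1 equalled the lowest. The difference between tumours and DEN WT nontumour was 0.73 ± 0.47 (limma adjusted p = 0.648). The second Ddit3 entry is a model of 105 bases for the upstream reading frame, spanning chr10:127290829-127293753 within exons 1 and 2 of the main entry. It was listed at 0 in 15 libraries and at 56.2, 26.0 and 124 TPM in DEN WT nontumour 1, 2 and 4. Reads of the shared exons can be split between both entries, so the main Ddit3 value of these 3 libraries is uncertain. The second entry was kept out of the counts of genes below.

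Atf3 (chr1:191170296-191218039, minus strand), an early-response repressor and activator induced by ATF4 and by many other stresses, had 1.56, 7.81 and 30.7 TPM in DEN LKO tumours. It had 0.78, 3.11 and 6.24 TPM in DEN LKO nontumour and 0.47 to 2.12 TPM in DEN WT nontumour (median 1.44). Tumours 2 and 3 exceeded all 6 DEN WT livers and tumour 1 did not. The untreated LKO livers had 12.3, 2.46 and 4.07 TPM and the untreated WT livers 1.35, 2.17 and 4.75 TPM. The difference between tumours and DEN WT nontumour was 1.95 ± 0.63 (0.62 to 3.29, limma adjusted p = 0.202). It was 2.85 without tumour 1 (limma adjusted p = 0.0135), 1.04 without tumour 3 (limma adjusted p = 0.514) and 0.51 with a term for XX or XY (limma adjusted p = 0.675).

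The remaining 4 genes act on amino acids, growth signalling and recovery. Ppp1r15a (GADD34, chr7:45522916-45526268, minus strand), the phosphatase subunit that restores translation, had 17.9, 13.8 and 49.9 TPM in DEN LKO tumours, 11.3, 34.0 and 46.9 TPM in DEN LKO nontumour and 11.9 to 24.4 TPM in DEN WT nontumour (median 13.5). Its untreated LKO livers had 47.8, 15.3 and 22.8 TPM and its untreated WT livers 6.97, 12.9 and 22.6 TPM. Each of the LKO groups held at least 1 library above all DEN WT livers and at least 1 that was not, and the difference between tumours and DEN WT nontumour was 0.63 ± 0.51 (limma adjusted p = 0.747).

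Chac1 (chr2:119351229-119354381, plus strand), which degrades glutathione, had 0.53, 1.14 and 2.41 TPM in DEN LKO tumours, 0.78, 3.93 and 1.2 TPM in DEN LKO nontumour and 0.16 to 7.29 TPM in DEN WT nontumour (median 2.31). Sesn2 (chr4:132492032-132510501, minus strand), a leucine sensor that restrains mTORC1, had 1.80, 2.61 and 4.91 TPM in tumours, 1.56, 1.60 and 4.03 TPM in DEN LKO nontumour and 1.86 to 4.59 TPM in DEN WT nontumour (median 2.64). The groups of both genes overlapped throughout, also without DEN: Chac1 ran from 0.31 to 2.24 TPM in untreated LKO and from 1.09 to 2.92 TPM in untreated WT, and Sesn2 from 1.49 to 2.66 TPM in untreated LKO and from 1.5 to 3.59 TPM in untreated WT. Tumours and DEN WT nontumour differed by -0.49 ± 0.54 for Chac1 (limma adjusted p = 0.828) and by 0.03 ± 0.34 for Sesn2 (limma adjusted p = 0.990).

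Asns (chr6:7675169-7693254, minus strand), asparagine synthetase and a classical ATF4 target, reached 1 TPM in 1 library. It had 0.14, 2.62 and 0.45 TPM in DEN LKO tumours, 0.02, 0.19 and 0.34 TPM in DEN LKO nontumour and 0.05 to 0.53 TPM in DEN WT nontumour (median 0.12). The untreated LKO livers had 0.14, 0.06 and 0.02 TPM, and the untreated WT livers 0.20 TPM once and 0 in the other two. Tumour 2 alone stood out. Tested without the filter, the difference between tumours and DEN WT nontumour was 0.63 (limma adjusted p = 0.443).

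**Figure D2:**
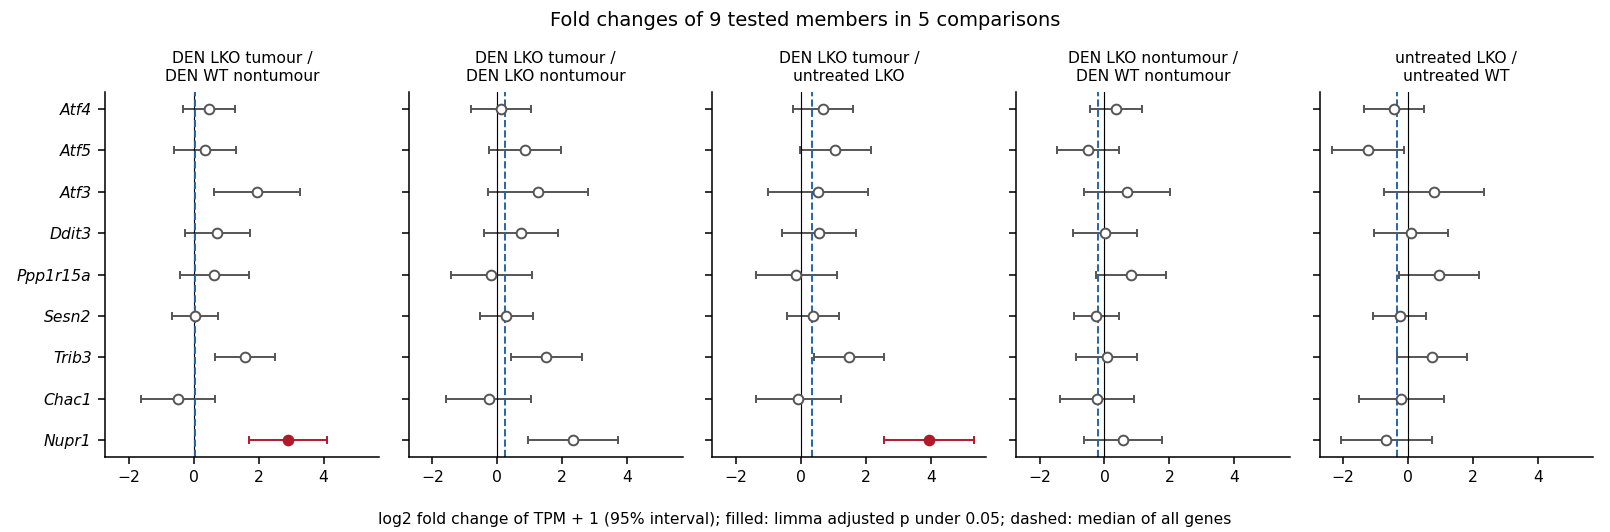
Log2 fold changes of the tested genes with 95% intervals in 5 comparisons (filled points passed over all genes, dashed lines give the all-gene median), on the log2(TPM + 1) scale from the limma fit. The intervals of Nupr1 for tumours against DEN WT nontumour (1.71 to 4.11) and against untreated LKO (2.55 to 5.32) are those that passed over all genes.

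Counted over the 9 tested genes, 1 (Nupr1) passed in tumours against DEN WT nontumour, where 0.497% of all 13872 genes passed, and 1 (Nupr1) in tumours against untreated LKO, where 0.728% passed. These 2 comparisons share the tumour libraries. In tumours against DEN LKO nontumour none of the 9 passed by limma (2 at an unadjusted p under 0.05), as none of all genes did (0%, with 380 at an unadjusted p under 0.05). The median log2 fold change of the 9 genes was 0.63 for tumours against DEN WT nontumour, beside 0.04 over all genes. It was 0.72 for tumours against DEN LKO nontumour, beside 0.23, and 0.56 for tumours against untreated LKO, beside 0.35. After scaling by the median ratio, which brings the all-gene medians of the last 2 comparisons to 0.01, the medians of the 9 genes were 0.42 and 0.08. Without tumour 3 the medians were 0.098 against DEN WT nontumour, -0.020 against DEN LKO nontumour and 0.078 against untreated LKO, and with a term for XX or XY the first was -0.12.

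By sign, 8 of 9 genes were above 0 in tumours against DEN WT nontumour (7 after quantile normalization), 7 of 9 against DEN LKO nontumour (6 after either scaling) and 7 of 9 against untreated LKO (6 after quantile normalization). Without tumour 3 these counts were 5, 4 and 5, and with a term for XX or XY they were 4, 7 and 9. The median over all genes was itself above 0 in these 3 comparisons (0.04, 0.23 and 0.35). In the fit as reported, 7, 6 and 7 of the 9 genes lay above that median. Libraries of tumours and DEN WT nontumour did not overlap for Nupr1 alone, against 3.19% of all genes. Those of tumours and DEN LKO nontumour did not overlap for Trib3 alone, against 3.83% of all genes. Tumours and untreated LKO did not overlap for Nupr1 and Trib3, against 10.4% of all genes.

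Without tumour tissue none of the 9 genes passed. For untreated LKO against untreated WT, 0 of 9 passed by limma (1 at an unadjusted p under 0.05, Atf5), beside 0.433% of all genes, and the median difference was -0.21 beside -0.33 over all genes. Scaling by the median ratio turned that median to 0.10. Trib3 was higher and Atf4 and Nupr1 lower in untreated LKO with no overlap, against 11.4% of all genes. Every untreated LKO library is XY and every untreated WT library XX, so genotype and sex cannot be told apart there. The mitochondrial share was 17.9% to 30.9% in untreated LKO and 4.24% to 23.2% in untreated WT, and in a fit with that share as a covariate the median was 0.52.

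For DEN LKO nontumour against DEN WT nontumour, 0 of 9 passed by limma (0 at an unadjusted p under 0.05), beside 0.0577% of all genes. The median difference was 0.06 beside -0.19, and no gene separated the groups, against 4.06% of all genes. The largest of these differences was 0.81 ± 0.51 for Ppp1r15a (limma adjusted p = 0.453). For DEN WT nontumour against untreated WT, 0 of 9 passed by limma (0 at an unadjusted p under 0.05), as for all genes (0%, with 95 at an unadjusted p under 0.05), and none separated the groups, against 0.67%. For DEN LKO nontumour against untreated LKO, 0 of 9 passed (1 at an unadjusted p under 0.05), beside 0.0649% of all genes. Nupr1 separated those groups, against 12.3% of all genes, with a difference of 1.59 ± 0.66 (0.21 to 2.98, limma adjusted p = 0.731). In the same comparison all 8 Kupffer cell and macrophage markers were above 0 (median 1.58 beside 0.12 over all genes), 0 passed by limma and 7 were higher at an unadjusted p under 0.05. Their part in the Nupr1 difference was not tested. The genotype difference after DEN minus that without DEN passed by limma for 0 of 9 genes (0 at an unadjusted p under 0.05) and for 0% of all genes (332 at an unadjusted p under 0.05); for Nupr1 it was 1.24 ± 0.87.

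**Figure D3:**
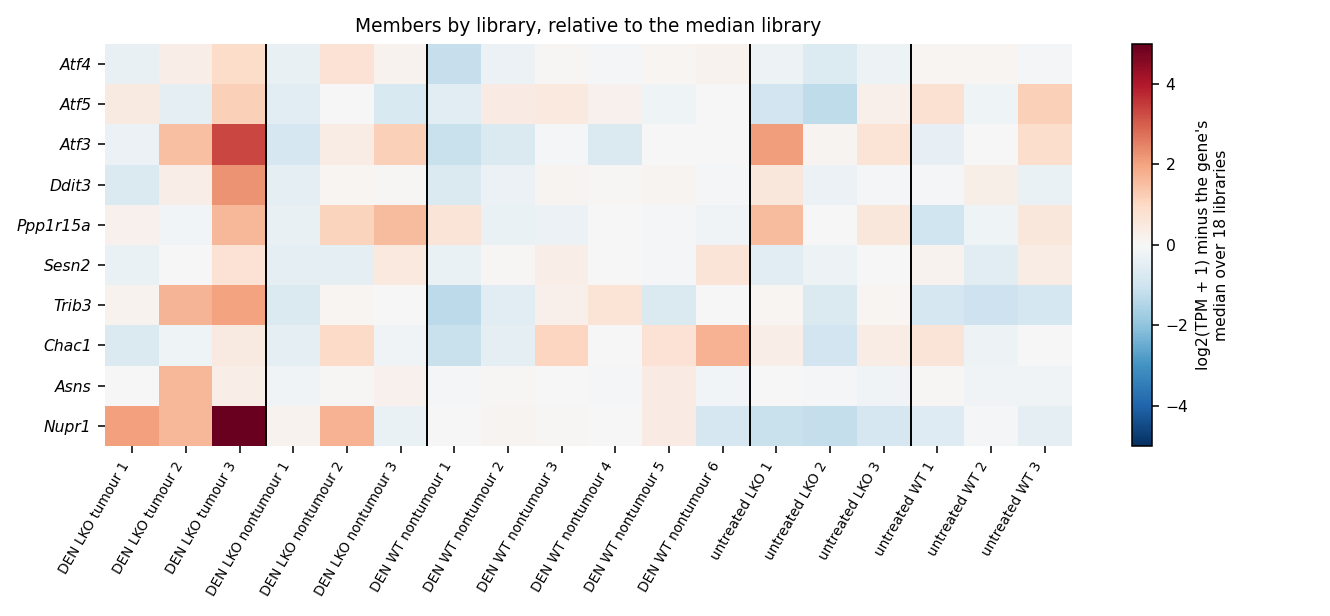
Level of each gene in each of the 18 libraries as the log2(TPM + 1) difference from that gene's median over all libraries, on a colour scale of -5 to 5. DEN LKO tumour 3 is above the median for all 10 genes, while tumour 1 is above it for 4.

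The 3 tumours did not form one profile. DEN LKO tumour 3 was the highest library for 8 of the 10 genes and above the median for all 10, by a median of 1.43 on the log2 scale. Tumour 2 was above the median for 7 genes and had the highest Asns. Tumour 1 was above it for 4 genes, namely Nupr1, Trib3, Atf5 and Ppp1r15a. Among the other libraries, DEN LKO nontumour 2 and DEN WT nontumour 3 were above the median for 8 genes each, DEN LKO nontumour 1 for 1 gene, and DEN WT nontumour 1 was the lowest library for 4 genes.

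Some of this moved with the mitochondrial share of TPM, which was 31.4%, 16.4% and 10.5% in tumours 1, 2 and 3. Over 18 libraries Chac1 correlated with that share at r = -0.665 (permutation p adjusted over 10 genes 0.0288), rho = -0.635 (adjusted permutation p = 0.0548), and r = -0.602 without the 2 farthest libraries. Within DEN WT nontumour, library 1 had the largest share (38.8%), the lowest Atf4 and the highest Ppp1r15a. Nupr1 had r = 0.017 with the share, and with the share as a covariate it differed by 3.11 between tumours and DEN WT nontumour (limma adjusted p = 0.0240).

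**Figure D4:**
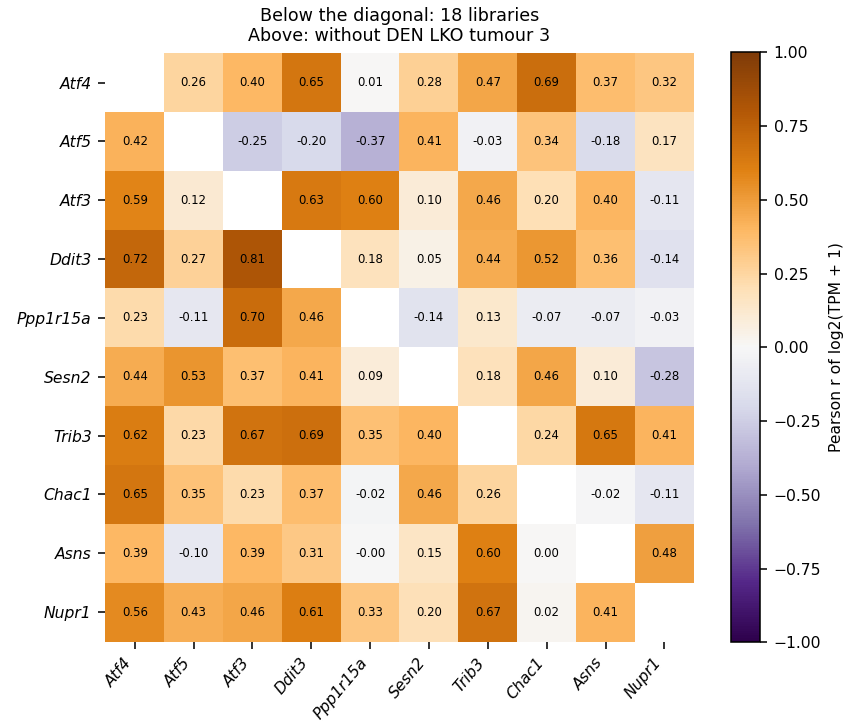
Pearson correlation of log2(TPM + 1) between each pair of the 10 genes, over 18 libraries below the diagonal and without DEN LKO tumour 3 above it. Over 18 libraries most pairs are positive (41 of 45), with Ddit3 and Atf3 (r = 0.814) and Atf4 and Ddit3 (r = 0.722) among the highest. Pairs of other genes are not shown for comparison.

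Correlations between the genes were taken over the 18 libraries. Of 45 pairs, 41 had a positive r (median 0.395), and 42 remained positive after each group's mean was taken out (median 0.437). By permutation with Benjamini-Hochberg adjustment over the 45 pairs, 8 passed for Pearson's r and 1 for Spearman's rho. Atf4 and Ddit3 passed by both (r = 0.722, adjusted permutation p = 0.0182, and rho = 0.753, adjusted permutation p = 0.0185), with r = 0.519 without the 2 libraries farthest in Atf4 and r = 0.930 within DEN WT nontumour. In that group the r with the mitochondrial share was -0.93 for Atf4 and -0.87 for Ddit3, whose main entry is uncertain in some of its libraries. The part of the share in the r of this pair was not tested. Ddit3 and Atf3 had r = 0.814 (adjusted permutation p = 0.00495) and rho = 0.633 (adjusted permutation p = 0.0831), and r = 0.651 without the 2 farthest libraries. Nupr1 and Trib3 had r = 0.665 (adjusted permutation p = 0.0321) and rho = 0.385. Their r was 0.26 after each group's mean was taken out and -0.29 within DEN WT nontumour. Without tumour 3 the r of Nupr1 was 0.412 with Trib3, 0.324 with Atf4 (0.564 with it) and -0.145 with Ddit3 (0.609 with it), so the last of these rested on that library. With Asns it was 0.485 without tumour 3 and 0.413 with it.

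Genes outside the 10 were ranked by their Pearson correlation with Nupr1, Trib3, Atf3 and Atf4 over 18 libraries, among 5592 candidates, as a description. Nearest to Nupr1 were Fgf21 (r = 0.910), a hepatokine and ATF4 target, the cell-cycle gene Cdca3 (0.896), Ly6d (0.876) and Sprr1a (0.871). Without tumour 3 these were 0.784, 0.716, 0.801 and 0.689. Sprr1a had 291 TPM in tumour 3 and at most 2.84 TPM in any other library. Nearest to Atf4 were Rpl30 (0.911), a ribosomal protein, Eif3e (0.908), a translation initiation subunit, Hsf1 (0.905), the heat-shock factor, and Ssb (0.899), the La RNA-binding protein. Nearest to Trib3 were Ano10 (0.912) and Uap1l1 (0.870), and nearest to Atf3 Efna1 (0.896), an ephrin ligand, and Mrm3 (0.831). Without tumour 3 these were 0.881, 0.796, 0.904 and 0.682. The lists of Nupr1 and Atf4 shared no gene.

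Fgf21 had 13.1, 6.18 and 69.8 TPM in DEN LKO tumours and 1.82, 8.49 and 2.88 TPM in DEN LKO nontumour. Its DEN WT nontumour livers ran from 1.92 to 3.64 TPM, and it had 0.29, 0.50 and 2.39 TPM in untreated LKO and 2.77, 0.24 and 2.20 TPM in untreated WT. As with Nupr1, all 3 tumours exceeded every DEN WT and untreated library, and DEN LKO nontumour 2 was the highest nontumour library. The difference was 3.36 ± 0.67 for tumours against untreated LKO (limma adjusted p = 0.0255) and 2.44 ± 0.58 against DEN WT nontumour (limma adjusted p = 0.0724). Without tumour 3, r with Nupr1 was 0.784 and the difference against untreated LKO was 2.42 (limma adjusted p = 0.106). That call was also lost without untreated LKO 1 (3.09, limma adjusted p = 0.143) or untreated LKO 2 (3.20, limma adjusted p = 0.119).

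**Figure D5:**
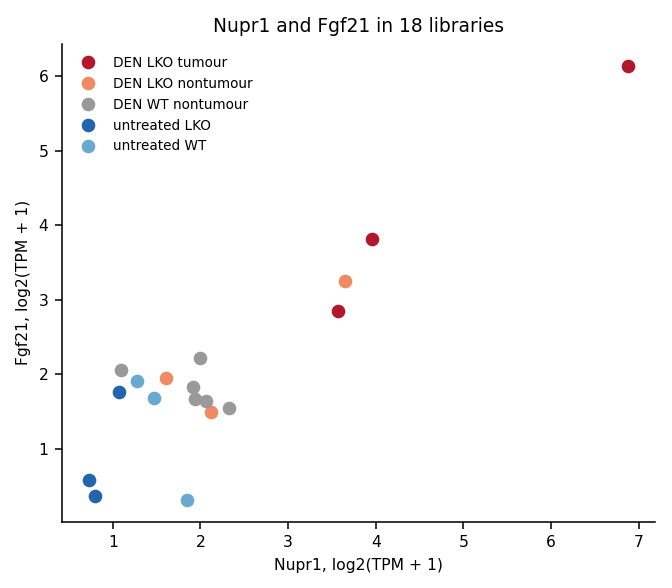
Nupr1 (horizontal) against Fgf21 (vertical) in log2(TPM + 1), one point per library, coloured by group. The 3 tumours and DEN LKO nontumour 2 lie at the upper right, with tumour 3 far beyond the rest, and the untreated LKO livers at the lower left.

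Wider lists of the pathway were then counted. Of 15 tested further ATF4 targets for amino acid supply and one-carbon metabolism (18 in the table), 1 passed for tumours against untreated LKO: Mthfd2, a mitochondrial folate enzyme, by 1.68 ± 0.38 (limma adjusted p = 0.0482). It had 3.47, 1.95 and 6.10 TPM in tumours, against 0.27, 0.98 and 0.14 TPM in untreated LKO. The call was lost without tumour 3 (1.35, limma adjusted p = 0.248), without untreated LKO 1 (1.60, limma adjusted p = 0.224), 2 (1.92, limma adjusted p = 0.0891) or 3 (1.52, limma adjusted p = 0.202), and after scaling by the median ratio (1.41, limma adjusted p = 0.117). The list's median in that comparison was 0.64, beside 0.35 over all genes. Against DEN WT nontumour 0 of the 15 passed by limma (1 higher and 1 lower at an unadjusted p under 0.05), 5 were above 0 and the median was -0.33, beside 0.04. Mthfd2 was at 1.16 there (limma adjusted p = 0.136) and the transsulfuration enzyme Cbs at -1.49 (limma adjusted p = 0.175).

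Of 16 tested ATF4 targets of other kinds (18 in the table), Fgf21 was the 1 that passed for tumours against untreated LKO, with a list median of 0.58. None of the 16 passed against DEN WT nontumour by limma (2 at an unadjusted p under 0.05, Fgf21 higher and Herpud1 lower at -1.94, limma adjusted p = 0.233), with a median of 0.15. All 20 aminoacyl-tRNA synthetases, which load amino acids onto tRNA, were tested and 0 passed in these comparisons (1 at an unadjusted p under 0.05 against untreated LKO), with medians of -0.10 against DEN WT nontumour and 0.41 against untreated LKO. The 16 eIF2 pathway genes had medians of 0.01 and 0.33, the 21 ATF6 and XBP1 targets of the endoplasmic reticulum -0.04 and 0.56, and the 11 mitochondrial stress genes -0.44 and 0.30, with 0 passing. The 10 tested p53 targets had 0.54 and 0.62, the 16 immediate early genes 0.46 and 0.45, and the 13 other bZIP factors 0.10 and 0.50, again with 0 passing. Against DEN LKO nontumour, where all genes had a median of 0.23, 0 genes of these 9 lists passed by limma (4 at an unadjusted p under 0.05, counting each list). The medians there were 0.77 for the ATF6 and XBP1 targets (20 of 21 above 0), 0.59 for the mitochondrial stress genes (11 of 11 above 0), 0.21 for the amino acid targets, 0.53 for the other ATF4 targets, 0.46 for the synthetases, 0.28 for the eIF2 pathway, 0.40 for the immediate early genes, 0.63 for the p53 targets and 0.52 for the bZIP factors. In the genotype comparisons without tumour tissue 0 genes of any of these lists passed. For amino acid targets the medians were -0.47 in untreated LKO against untreated WT, beside -0.33, and -0.61 in DEN LKO nontumour against DEN WT nontumour, beside -0.19.

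Markers of dividing cells were measured beside Nupr1. Their summed level over 6 genes was 8.18 to 71.5 TPM in DEN LKO tumours, 2.27 to 9.47 TPM in DEN LKO nontumour, 1.75 to 11.1 TPM in DEN WT nontumour, 1.11 to 1.98 TPM in untreated LKO and 1.70 to 2.67 TPM in untreated WT. Of the 3 that passed the filter on low values, Birc5, the mitotic factor survivin, was higher in tumours than in DEN WT nontumour (1.71, limma adjusted p = 0.0464) and than in untreated LKO (2.31, limma adjusted p = 0.0172). Both calls of Birc5 were lost without tumour 3 (1.24, limma adjusted p = 0.211, and 1.83, limma adjusted p = 0.0948), the first also without tumour 2 or any of DEN WT nontumour 2, 3, 4 and 6 (limma adjusted p 0.0712 to 0.109), and the second without any one of the untreated LKO libraries (limma adjusted p 0.0651 to 0.0889). The first was 1.07 with a term for XX or XY (limma adjusted p = 0.535), and it was also lost with no filter (limma adjusted p = 0.0995) and with the compared groups alone (limma adjusted p = 0.261). No marker of the 6 was at 0 in a whole group. Their part in the Nupr1 result was not tested. Nupr1 is abundant in the pancreas. The 8 acinar markers summed to 0.83 to 3.14 TPM in tumours and 0.26 to 2.21 TPM in all other libraries. Cpb1, Cel, Pnlip, Cpa1, Prss2 and Amy2a5 were at 0 in every tumour, and Cel and Amy2a5 in every library. The 1 acinar marker that passed the filter was higher in tumours than in untreated LKO by 0.78 (limma unadjusted p under 0.05, with 0 passing). The part of acinar cells in the Nupr1 result was not tested. Kupffer cell and macrophage markers (8 genes, 0 passing by limma in tumours against DEN WT nontumour, 5 lower at an unadjusted p under 0.05, median -1.27) summed to 46.3 to 190.5 TPM in tumours, 101 to 274.7 TPM in DEN LKO nontumour, 91.9 to 376.9 TPM in DEN WT nontumour, 31.8 to 60.8 TPM in untreated LKO and 55.6 to 159.5 TPM in untreated WT. None of the 8 was at 0 in a whole group, and their part was not tested.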

How the data were processed

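Per the submitters' processing notes, fastp, HISAT and RSEM were used on the mm10 genome, and the authors deposited 1 TPM table of all 18 libraries, whose group mean columns equal the means of the library columns within 3.33e-05. Each library's TPM summed to between 999999.1 and 1000000.8. No 2 libraries were identical. The members and gene lists were chosen with earlier results of these data known. Named genes are the members, genes of the lists past the threshold, and the 4 most correlated genes. After a log2 transform with a pseudocount of 1, the 13872 genes that reached 1 TPM in 3 or more of the 18 libraries were fitted in limma 3.58.1 (R 4.3.3, trend) as 5 group means, with Benjamini-Hochberg adjustment over all genes and a threshold of 0.05, and checked on simulated data. Exact permutation tests and correlations with 100000 resamples used scipy 1.17.1. Alternatives changed the pseudocount, filter, scaling, covariates and libraries. Sex was read from Xist and Y-linked TPM.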

Additional observations from a re-analysis of the deposited data

Results flagged for a closer look

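Within DEN WT nontumour, the one group large enough to examine (6 libraries), 4 genes had a single library far from the other 5. Atf4 was low in library 1 at 18.63 TPM, Nupr1 low in library 6 at 1.14 TPM, Asns high in library 5 at 0.53 TPM and Ppp1r15a high in library 1 at 24.38 TPM. On the log2(TPM + 1) scale the gap to the nearest library made up 0.654, 0.669, 0.645 and 0.689 of the whole range, above the critical share of 0.625. In TPM itself the shares were 0.545, 0.571, 0.688 and 0.758, so those of Atf4 and Nupr1 fell below it. Chance alone marks about 1 in 20 such groups, and 11 were examined. Library 1 also had the largest mitochondrial share of all 18 libraries, at 38.8%, and low Ftcd.

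The second Ddit3 entry, which was fitted with all genes but kept out of the counts, reached 123.65 TPM in DEN WT nontumour 4 while 15 libraries were at 0. Its fitted difference between DEN LKO tumour and DEN WT nontumour did not pass (limma adjusted p = 0.392). Of 187 entries of 90 to 120 bases that reached 10 TPM in some library, 144 were at 0 in at least 9 libraries.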

How the results depend on the processing

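For the 9 tested genes, 1233 recomputed values over 72 results gave 1075 with the same direction and side of the threshold, and 140 uncalled values turned sign; 0 called values reversed. Nupr1 stayed past the threshold in 11 of 18 alternatives against DEN WT nontumour (limma adjusted p 0.00726 to 0.535) and in 11 of 15 against untreated LKO (0.00176 to 0.363). The count of genes past the threshold in tumours against DEN WT nontumour, 1 as reported, was 0 with no filter (Nupr1 limma adjusted p = 0.0675), with a term for XX or XY (0.535) and with the compared groups alone (0.186), was 2 with median-ratio scaling, quantile normalization and the mitochondrial covariate (Trib3 added), and ranged from 0 to 3 when 1 library was left out (0 without tumour 3, DEN WT 3 or DEN WT 6, at 0.0954, 0.0552 and 0.0639). Against untreated LKO it was 2 with a term for XX or XY, 0 with the compared groups alone, and 0 to 2 with 1 library left out (0 without untreated LKO 1 or 2, at 0.0602 and 0.0669).

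The labels do not say whether replicate numbers pair the libraries, and no compared groups had all 3 correlations of deviations above 0.1, so they were not treated as pairs. That rule cannot decide the pairing, which stays unknown. DEN WT nontumour and untreated LKO, which differ in genotype and so in mice, met it (0.182, 0.295 and 0.469). DEN LKO tumour and nontumour share XX or XY number by number, with correlations of 0.347, 0.301 and -0.034. With the number as a block the count was 0 in all 3 tumour comparisons (Nupr1 2.80, limma adjusted p = 0.473, against DEN WT; 3.93, 0.335, against untreated LKO; 2.34, 0.768, against DEN LKO nontumour).

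Medians of the 9 genes moved to -1.19 and 0.52 (XX or XY term, mitochondrial covariate) in untreated LKO against WT, to -0.66 and 0.65 in DEN LKO nontumour against DEN WT, and to -0.12 (XX or XY term) in tumours against DEN WT. With 1 library left out they ran from -0.020 to 0.87 in tumours against DEN LKO nontumour and 0.10 to 0.88 against DEN WT.

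Over all genes the counts ran, across alternatives, from 0 to 485 in tumours against DEN WT (69 as reported), 0 to 872 against untreated LKO (101), 0 to 21 against DEN LKO nontumour (0), 0 to 1277 in DEN LKO nontumour against DEN WT (8), 10 to 94 in untreated LKO against WT (60) and 0 to 189 in DEN LKO nontumour against untreated LKO (9). The causes were not tested. In settings chosen after the data were seen, leaving out tumour 3 gave Fgf21 2.42 (limma adjusted p = 0.106) and Mthfd2 1.35 (0.248) against untreated LKO, and Birc5 1.24 (0.211) against DEN WT.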
